A study of Mus musculus with 7 samples.

Results

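The enzymes that break down glucose were examined in splenic regulatory T cells (Tregs) of aged and young mice. The 40 genes were taken by symbol from the textbook pathways, without use of their values. Of these, 17 encode enzymes of glycolysis, 2 encode the subunits of lactate dehydrogenase, 8 belong to the pyruvate dehydrogenase complex or to the kinases that switch it off, 12 encode enzymes of the tricarboxylic acid (TCA) cycle, and the last is Hif1a, the oxygen-regulated subunit of hypoxia-inducible factor 1. All 40 were found among the 25469 genes of the deposited table, and 39 held enough reads to be tested. The exception was Pdk4, with 1 to 13 counts per library. Because the genes were gathered with earlier results of these data known, no test of the 40 as a set was made.

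Both groups were male wild-type C57BL/6 mice, with no transgene or treatment. Sex and strain are taken from the study's methods. Aged mice were 18 months old and gave 3 biological replicates. Young mice gave 4. The sample labels put them at 8 weeks, and the study's methods give a different, also young, age. The labels name the cells CD4+CD25+ splenocytes, and magnetic beads were used to isolate them, so cells of other kinds can remain in each sample. RNA-sequencing was done on cDNA amplified with a SMART-Seq kit, which attaches no molecular identifiers. The labels call the replicates biological without saying whether each came from 1 mouse or a pool, so p-values measure the spread between these samples.

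Gene counts ranged from 10734234 to 13649310 per library, and 3 counts equal 0.21 to 0.302 CPM, a unit in which a gene's counts are scaled to the size of its library after TMM correction. Foxp3, the defining transcription factor of Tregs, lay between 394 and 622 CPM in all 7 libraries, and Cd4 lay between 434 and 633 CPM. By the edgeR test described below, 2 of 10 Treg markers were lower in aged libraries and none was higher (log2 fold changes -1.71 to 0.86). Of 8 T cell markers, 1 was higher and 1 lower. Over all genes, 9.8% were higher and 6.94% lower. Aged replicate 1 and young replicate 2 stood apart from the rest. They had haemoglobin shares of 1.27% and 1.24% of gene counts against 5.91% to 13.1% elsewhere. Young replicate 2 also had the highest sum of the 8 plasma cell markers, 2134 CPM. That sum was 420 to 612 CPM in the other young and 888 to 1438 CPM in the aged libraries. Immunoglobulin genes took 2.93% of its counts, 0.618% to 0.905% in the other young and 1.78% to 2.6% in the aged libraries. Mitochondrially encoded genes took 5.08% to 10.7% of counts in the aged libraries and 2.63% to 3.23% in the young libraries, without overlap. The 13 neutrophil markers summed to 5512, 1994 and 759 CPM in aged replicates 1 to 3 and to 325 to 1036 CPM in young ones. The 8 naive T cell markers summed to 1471 to 1970 CPM in aged and to 2523 to 3095 CPM in young libraries. By the same test 7 of these 8 were lower, and of 8 dendritic cell markers 1 was higher and 3 were lower. The counts were 1 higher and 4 lower of 12 macrophage and monocyte markers, and 2 and 1 of 7 platelet markers. Further, 1 of 10 B cell and 1 of 9 CD8 and NK markers were lower, and 1 of 8 plasma cell markers higher. The part of these differences in the results that follow was not tested. In a bulk sample, fewer cells of one kind and less RNA per cell cannot be told apart.

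Glycolysis turns glucose into pyruvate in the cytosol. Pyruvate is then reduced to lactate by lactate dehydrogenase, or enters the mitochondrion, where pyruvate dehydrogenase converts it to acetyl-CoA for the TCA cycle. Conventional T cells raise glycolysis sharply when they are activated, whereas Tregs are known to lean more on mitochondrial oxidation, although dividing and migrating Tregs also use glycolysis. Several steps are catalysed by alternative isoenzymes encoded by separate genes, which differ between tissues in abundance and regulation.

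Aged and young Tregs differed at a few steps of the pathway, and most of its genes did not pass the test. Of the 39 genes tested, 7 passed the test (edgeR quasi-likelihood, Benjamini-Hochberg adjusted p under 0.05), which is 17.9% of them. Across all 13904 genes tested the share was 16.7%, which is close to that of the pathway. Aldoa, Aldoc and Eno2 were higher in aged Tregs, against a background of 9.8% of genes called higher. Eno3, Pdha1, Suclg1 and Fh1 were lower, against a background of 6.94%. The median log2 fold change of the 39 genes was -0.01, beside 0.02 over all genes tested. Values of the aged and young libraries did not overlap in 14 of the 39, and they did not overlap in 29.9% of all genes. When scaled by library size alone, an alternative added after the data were seen, 12 of the 39 did not overlap, beside 27% of all genes, and 8 of these were among the 14. All 7 called genes were, but Pfkp, Eno1, Cs, Dlst, Suclg2 and Mdh2 then overlapped, and statements on their separation below hold for the TMM scale only. Dlat, Idh3b, Idh3g and Ogdh were separate with library size alone but not on the TMM scale, each lower in aged Tregs. At an unadjusted p under 0.05 the count was 12, and the background was 32.7%. None of the 7 changed by 2-fold in the fit.

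**Figure D1:**
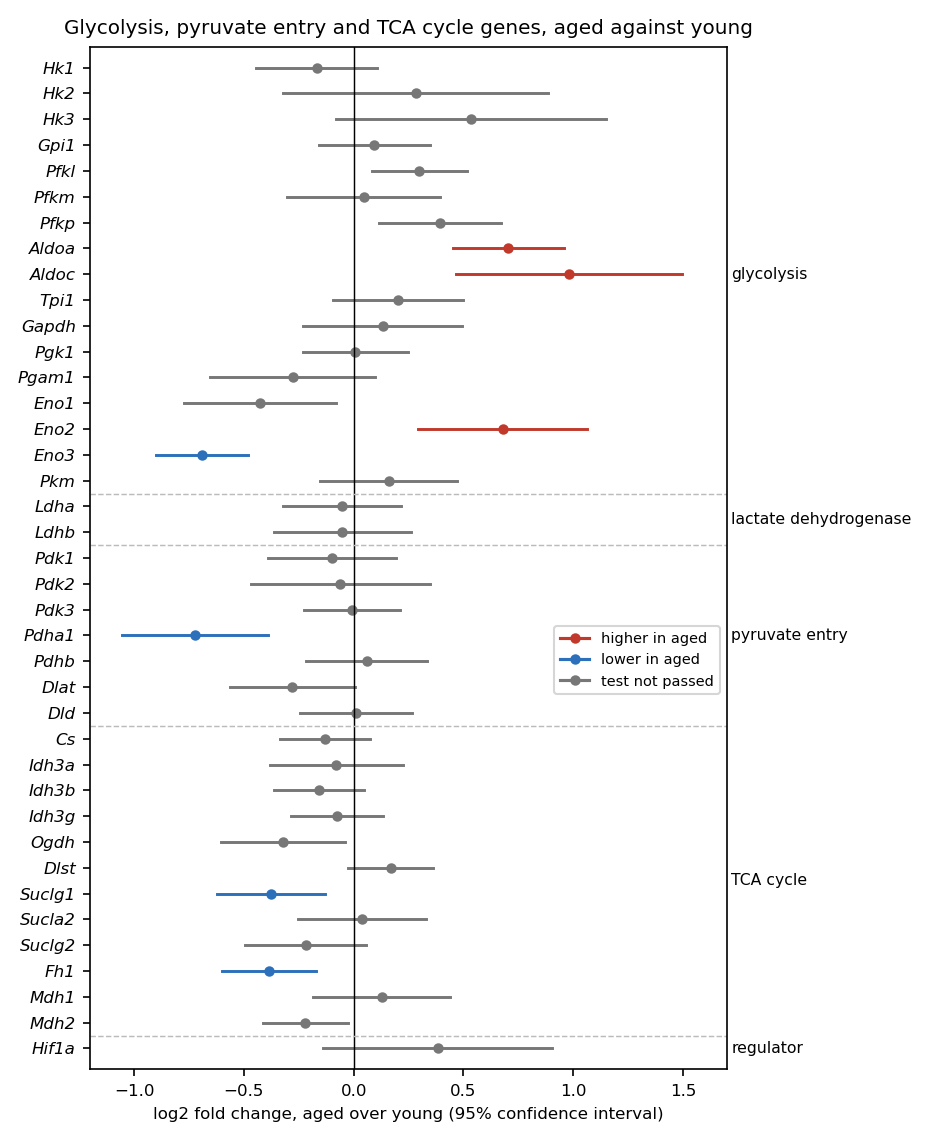
Log2 fold change (x axis, aged over young, points) with its 95% confidence interval (lines) for the 39 tested genes, ordered by stage of the pathway. The 3 red genes were higher and the 4 blue genes lower in aged Tregs, and the intervals of the lactate dehydrogenase genes and of most TCA cycle genes include 0.

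The called genes fell at different steps of the pathway. All 3 higher genes and 1 of the lower genes belong to glycolysis, where 17 genes were tested. The other lower genes were 1 of 7 tested at pyruvate entry and 2 of 12 in the TCA cycle. Over all genes tested, 9.8% were called higher and 6.94% lower. Of the 17 glycolytic genes, 13 had a positive log2 fold change and the median was 0.16. Of the 12 TCA cycle genes, 9 had a negative one and the median was -0.14. Over all 13904 genes tested, 7230 were positive and 6674 negative, with a median of 0.02.

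Summed over its genes, the level of glycolysis was 3539, 3071 and 3060 CPM in aged replicates 1 to 3 and 2886, 3463, 2843 and 2899 CPM in young replicates 1 to 4. These ranges overlapped, and the highest value of each age was in the library with the lowest haemoglobin share. The TCA cycle genes summed to 1324, 1374 and 1402 CPM in aged and to 1460, 1555, 1479 and 1461 CPM in young libraries. On this scale each aged library lay below each young one. The genes of pyruvate entry summed to 381 to 418 CPM in aged and 426 to 503 CPM in young libraries, also without overlap. Neither separation held when the sums were taken as a plain share of gene counts. The TCA cycle then took 0.121% to 0.14% in aged and 0.138% to 0.163% in young libraries, and pyruvate entry took 0.0348% to 0.0434% and 0.0402% to 0.0526%. Lactate dehydrogenase summed to 453 to 514 and 456 to 568 CPM, with overlap. These sums are given as a description, since the most abundant genes dominate them.

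**Figure D2:**
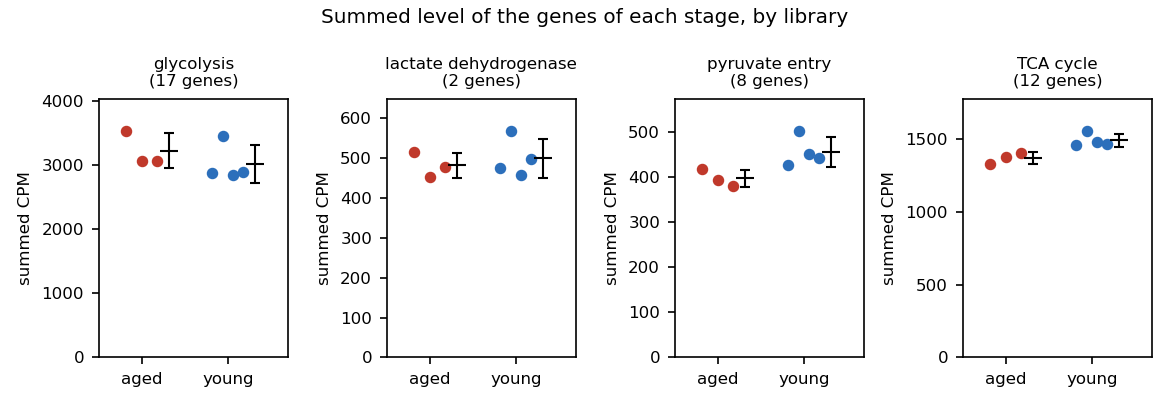
Summed CPM (y axis) of the genes of each stage in the 3 aged (red) and 4 young (blue) libraries, with mean and SD beside them. On this TMM scale the aged and young libraries do not overlap for pyruvate entry and the TCA cycle, whereas as a plain share of gene counts all 4 stages overlap.

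Aldolase splits fructose 1,6-bisphosphate into the triose phosphates. Both of its expressed genes were higher in aged Tregs. Aldoa (chr7:126795234-126800751, minus strand, GRCm38), which encodes the isoenzyme of muscle and most other tissues, measured 382, 424 and 428 CPM in the aged and 239, 287, 233 and 251 CPM in the young libraries. Every aged value was above every young value. The fold change was 1.63 (95% confidence interval 1.37 to 1.94), a log2 fold change of 0.70 with a standard error of 0.11 and an edgeR adjusted p of 0.0051. Aldoa was also called in each of the 7 fits that left out a library. Of its 50-base words, 13.5% also occur in other genes, most often in its copy Aldoart1, so that part of its count depends on how such reads were placed.

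Aldoc (chr11:78322968-78327781, plus strand), known as the aldolase of brain, was far less abundant. It measured 7.51, 7.55 and 8.42 CPM in aged and 5.33, 3.99, 2.84 and 3.73 CPM in young Tregs, with 36 to 90 counts per library. The groups did not overlap, and young replicate 1 came nearest to the aged values. Its fold change was 1.97 (1.38 to 2.82) and its log2 fold change 0.98 with a standard error of 0.23 (edgeR adjusted p = 0.0222). The call was lost without aged replicate 3 (adjusted p = 0.074), young replicate 3 (0.0506) or young replicate 4 (0.0656). Per kilobase of exon, Aldoa held over 98% of the aldolase signal in every library, at 141 CPM per kb in aged and 86.7 in young Tregs against 2.4 and 1.22 for Aldoc. The ratio of the 2 genes overlapped between the ages, with a difference in log2 ratio of -0.29 (exact two-sided permutation p = 0.229, 0.449 when adjusted over 11 isoform pairs). With 3 against 4 libraries this test cannot give a p below 0.0571.

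**Figure D3:**
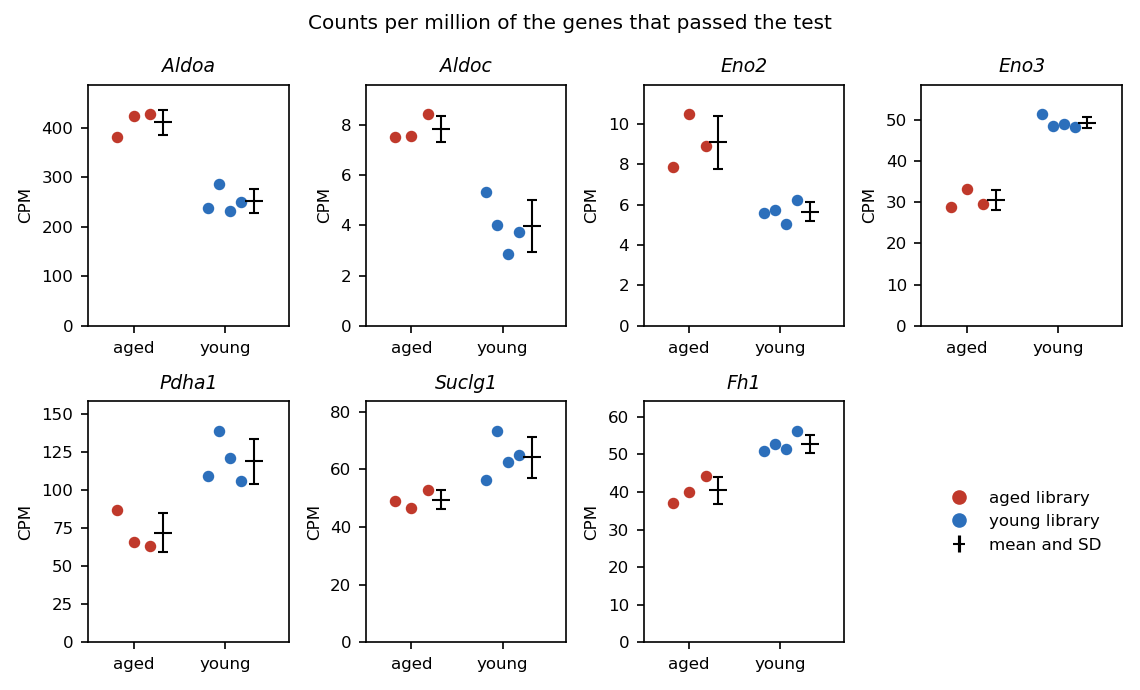
CPM (y axis, from 0) of the 7 genes that passed the test in each aged (red) and young (blue) library, with mean and SD. No aged library overlaps a young one in any panel; this was also true of 29.9% of all genes tested.

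Enolase makes phosphoenolpyruvate, and its 3 genes did not move together. Eno2 (chr6:124760053-124769673, minus strand), the neuronal enolase, was higher in aged Tregs. Its values were 7.86, 10.5 and 8.89 CPM in aged and 5.59, 5.75, 5.05 and 6.24 CPM in young libraries. These groups did not overlap, and the fold change was 1.60 (1.23 to 2.09), with a log2 value of 0.68, a standard error of 0.17 and an edgeR adjusted p of 0.0289. This call was among the less stable ones. It held in 1 of the 7 fits that left out a library, the one without aged replicate 1, and its adjusted p was 0.0541 to 0.0873 in the others, which left out aged replicates 2 and 3 or any young replicate.

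Eno3 (chr11:70657202-70662513, plus strand), the muscle enolase, was lower in aged Tregs and had the smallest adjusted p of the 39 genes. It measured 28.8, 33.2 and 29.7 CPM in aged libraries against 51.4, 48.6, 49.0 and 48.4 CPM in young ones. The young libraries lay within a narrow band and all aged libraries lay well under it. The fold change was 0.62 (0.536 to 0.715), with a log2 value of -0.69, a standard error of 0.091 and an edgeR adjusted p of 0.0025. It was called in all 7 fits that left out a library.

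Eno1, the ubiquitous enolase, was the most abundant of the family at 476, 381 and 341 CPM in aged and 510, 635, 497 and 506 CPM in young Tregs. Each aged value was below each young one, but the test was not passed (log2 fold change -0.43, standard error 0.15, edgeR adjusted p = 0.0907). It was passed with DESeq2 (adjusted p = 0.0264) and without aged replicate 1 (0.0289). Of the 50-base words in the exons of Eno1, 72.2% also occur in other genes, chiefly its copy Eno1b, so its count depends on how such reads were placed. The corresponding shares were 0.255% for Eno2 and 0 for Eno3.

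Per kilobase of exon, Eno2 took 2.09% ± 0.458 (SD, n = 3) of the enolase signal in aged and 0.934% ± 0.106 (SD, n = 4) in young Tregs. Eno3 took 19.0% ± 2.99 and 22.1% ± 2.09, and Eno1 the rest. The log2 ratio of Eno1 to Eno2 lay between 4.98 and 5.71 in aged and between 6.13 and 6.58 in young libraries. Among the 11 isoform ratios, this was the sole one whose groups did not overlap. Its difference was -1.10 (exact two-sided permutation p = 0.0571, the smallest possible, and 0.449 when adjusted over 11 pairs), so the correction was not passed.

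**Figure D4:**
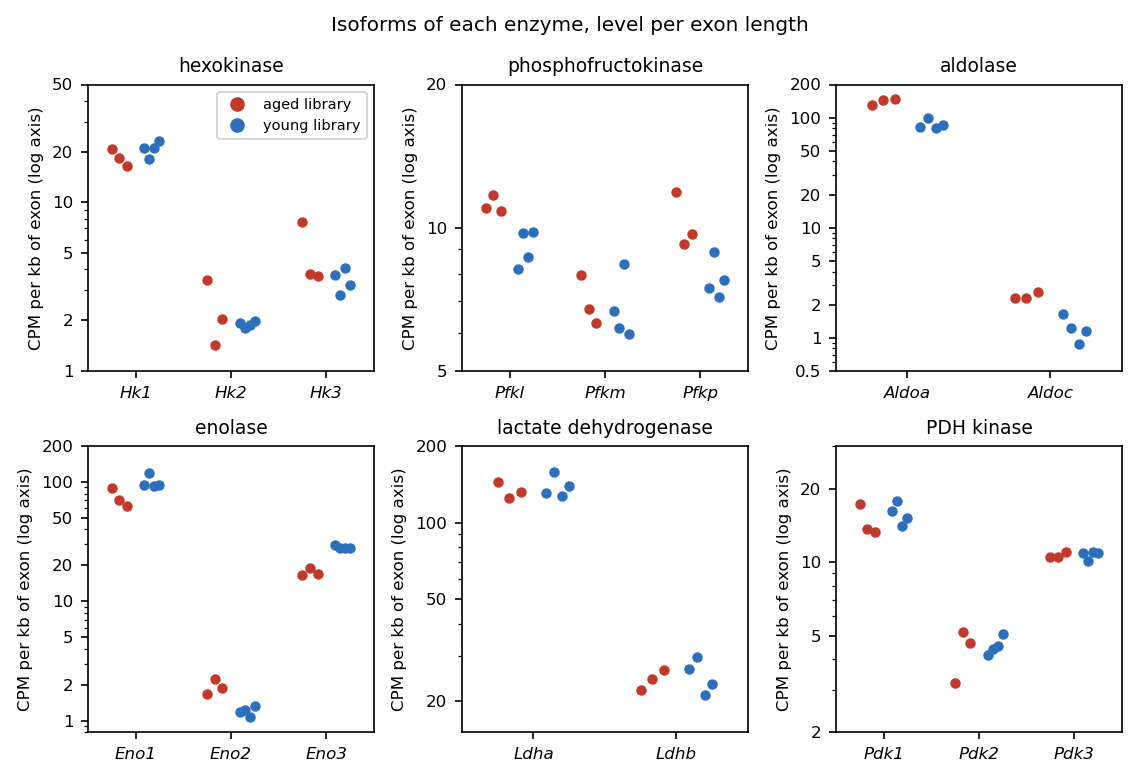
CPM per kilobase of exon (y axis, log scale) of the isoforms of 6 enzymes in each aged (red) and young (blue) library. Aldoa, Aldoc and Eno2 lie higher and Eno3 lies lower in aged libraries, while Ldha and Ldhb overlap between the ages.

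Hexokinase traps glucose in the cell as glucose 6-phosphate. None of its 3 genes passed the test. Hk1, the housekeeping form, measured 177, 156 and 139 CPM in aged and 178, 155, 179 and 196 CPM in young libraries and held the largest share per exon length, 72.5% ± 6.46 (SD, n = 3) and 79.5% ± 1.52 (SD, n = 4). Hk2, the inducible form, measured 20.5, 8.46 and 12.1 CPM in aged and 11.4, 10.7, 11.1 and 11.8 CPM in young Tregs. The 3 aged libraries spanned the young range on both sides.

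Hk3, the hexokinase known from myeloid cells, measured 28.0, 13.9 and 13.5 CPM in aged and 13.6, 10.4, 15.01 and 12.0 CPM in young libraries. A log2 fold change of 0.53 (standard error 0.27, edgeR adjusted p = 0.209) became 0.10 without aged replicate 1. That library also had the highest sum of neutrophil markers, 5512 CPM. Of the 13 neutrophil markers, 5 were higher in aged Tregs and none was lower, beside 9.8% and 6.94% of all genes, and none of the 13 was at 0 in all libraries. The part of neutrophils in the Hk3 signal was not tested.

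Phosphofructokinase commits sugar to glycolysis. Pfkl, the liver-type subunit, measured 73.5, 78.2 and 72.4 CPM in aged and 54.6, 65.2, 57.8 and 65.2 CPM in young libraries, and Pfkp, the platelet-type subunit, measured 159, 124 and 130 CPM against 100.2, 119, 95.8 and 104 CPM. In both genes the groups did not overlap, yet neither passed the edgeR test (Pfkl: fold change 1.23, 1.06 to 1.43, adjusted p = 0.0628). For Pfkp the fold change was 1.31 (1.08 to 1.59) with an edgeR adjusted p of 0.0591, which became 0.0279 once GC and length trends were removed and 0.0424 without young replicate 2. Pfkm, the muscle-type subunit, measured 26.6, 22.6 and 21.1 CPM in aged and 22.3, 20.5, 28.0 and 19.997 CPM in young libraries, with overlap. Of the 50-base words of Pfkp, 17.1% also occur in its neighbour Pitrm1, which overlaps it.

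The remaining steps of glycolysis did not pass the test. Gpi1, which interconverts hexose phosphates, had a fold change of 1.07 (0.896 to 1.27). Tpi1, which interconverts the triose phosphates, stood at 1.15 (0.937 to 1.41). For Gapdh, the oxidising step, the value was 1.10 (0.853 to 1.41), and for Pgk1, the first ATP-forming step, it was 1.01 (0.852 to 1.19). These intervals leave room for changes of up to about 1.4-fold. Pgam1, which moves the phosphate group, measured 34.5, 23.9 and 23.9 CPM in aged and 28.2 to 36.5 CPM in young Tregs. Its fold change was 0.82 (0.635 to 1.07), and it was called without aged replicate 1 (log2 fold change -0.48, edgeR adjusted p = 0.0429). Pkm, the pyruvate kinase of lymphocytes and many other tissues, had the most counts of the 40 genes. Per exon length it averaged 149 CPM per kb in aged and 133 in young libraries, beside 134 and 139 for Ldha, with a fold change of 1.12 (0.900 to 1.39). Of their 50-base words, Gapdh shares 82.5%, Pgk1 68.0%, Pgam1 41.5%, Pkm 34.4% and Gpi1 25.3% with other genes, which makes these levels uncertain.

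Lactate dehydrogenase A, which favours the reduction of pyruvate to lactate, did not pass the test. Ldha measured 479, 415 and 436 CPM in aged and 433, 522, 423 and 460 CPM in young Tregs. Its fold change was 0.96 (0.801 to 1.16, edgeR adjusted p = 0.803). Ldhb, which encodes the heart-type subunit, measured 34.5, 38.2 and 41.5 CPM in aged and 41.9, 46.5, 33.0 and 36.5 CPM in young Tregs, a fold change of 0.96 (0.776 to 1.20). In both genes the groups overlapped. Ldha held 84.6% ± 1.93 (SD, n = 3) of the family's signal per exon length in aged and 84.7% ± 1.34 (SD, n = 4) in young libraries. Ldha shares 16.6% and Ldhb 27.0% of their 50-base words with other genes, so these levels are uncertain too.

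Pyruvate dehydrogenase feeds pyruvate carbon into the TCA cycle. Its catalytic E1 alpha subunit, encoded by Pdha1 (chrX:160122209-160138413, minus strand), was lower in aged Tregs. Pdha1 measured 86.8, 65.8 and 63.7 CPM in aged and 109.6, 139, 121 and 106 CPM in young libraries. The groups did not overlap, and aged replicate 1 lay closest to the young values. The fold change was 0.61 (0.481 to 0.763), with a log2 value of -0.72, a standard error of 0.15 and an edgeR adjusted p of 0.0137. Leaving out aged replicate 3 ended the call (adjusted p = 0.0539, log2 fold change -0.64). Pdha1 shares 16.9% of its 50-base words with other genes and 16.1% of its exon length with the neighbouring gene Map3k15, and reads there could have been set aside as ambiguous.

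The other subunits of the complex did not pass the test. Pdhb, the E1 beta subunit, measured 62.6, 83.9 and 78.1 CPM in aged and 63.7, 75.7, 71.2 and 76.6 CPM in young Tregs (fold change 1.04, 0.861 to 1.26). Dld, the E3 subunit, which is also part of other dehydrogenase complexes, had a fold change of 1.01 (0.844 to 1.20). Dlat, the E2 subunit, had a fold change of 0.82 (0.676 to 1.00) and an edgeR adjusted p of 0.159. The interval of Pdha1 did not reach those of Pdhb and Dld, but the difference between the genes was not tested. Pdhb shares 30.3% of its 50-base words with another gene, so its count depends on how such reads were placed.

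The pyruvate dehydrogenase kinases, which phosphorylate E1 alpha and so inactivate the complex, did not pass the test. Pdk1 measured 135, 106 and 104 CPM in aged and 127, 138, 109.8 and 118 CPM in young libraries. Pdk2 measured 10.1, 16.4 and 14.8 CPM in aged and 13.1, 13.9, 14.3 and 16.1 CPM in young libraries. Pdk3 measured 26.9, 26.8 and 28.2 CPM in aged and 28.0, 25.9, 28.1 and 27.8 CPM in young libraries. All 3 overlapped between the ages, and Pdk3 varied least, with a fold change of 0.99 (0.856 to 1.16). Pdk1 held about as much of the family's signal per exon length in aged (49.4% ± 5.61, SD, n = 3) as in young Tregs (50.7% ± 3.17, SD, n = 4). Pdk4, a fasting-induced form, measured 0.079 to 0.911 CPM over all libraries, and its highest value, in young replicate 2, rests on 13 counts.

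In the TCA cycle, Suclg1 and Fh1 were lower in aged Tregs. Fh1 (chr1:175600374-175625635, minus strand), the fumarase that hydrates fumarate to malate, measured 37.1, 39.98 and 44.4 CPM in aged and 51.0, 52.8, 51.5 and 56.3 CPM in young libraries. Every aged value was below every young value. Its fold change was 0.77 (0.660 to 0.888), with a log2 value of -0.39, a standard error of 0.094 and an edgeR adjusted p of 0.0270. The call was lost without aged replicate 2 (adjusted p = 0.0663) and without young replicates 1, 3 or 4 (0.063, 0.0644 and 0.0816).

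Suclg1 (chr6:73248382-73276911, plus strand), the alpha subunit of succinate-CoA ligase, measured 49.1, 46.5 and 53.0 CPM in aged and 56.3, 73.4, 62.4 and 64.9 CPM in young libraries. The groups did not overlap, although aged replicate 3 and young replicate 1 were close. With a fold change of 0.77 (0.649 to 0.915), a log2 value of -0.38 and a standard error of 0.11, its edgeR adjusted p of 0.0472 was nearest the threshold among the called genes. It was called in 5 of 18 alternative fits, and of the fits that left out a library only the one without young replicate 1 kept it (the adjusted p was 0.0732 to 0.115 without any of the other 6). The alpha subunit pairs with either of 2 beta subunits. Sucla2, the ATP-forming one, measured 38.0, 39.0 and 49.4 CPM in aged and 37.2, 46.4, 41.7 and 38.7 CPM in young libraries. Suclg2, the GTP-forming one, measured 47.6, 45.2 and 47.4 CPM in aged and 50.6, 66.2, 52.4 and 48.3 CPM in young libraries, a fold change of 0.86 (0.710 to 1.04). Suclg2 did not overlap between the ages but did not pass the test (edgeR adjusted p = 0.245). It shares 21.8% of its 50-base words with another gene.

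Among the other TCA cycle genes, Ogdh, the E1 subunit of the oxoglutarate dehydrogenase complex, had a fold change of 0.80 (0.657 to 0.972, edgeR adjusted p = 0.109). Mdh2, the mitochondrial malate dehydrogenase, measured 185, 178 and 180 CPM in aged and 200.2, 217, 213 and 211 CPM in young libraries. Those groups were tight and separate, but the fold change of 0.86 (0.751 to 0.982) did not pass the test (edgeR adjusted p = 0.111). Mdh1, the cytosolic malate dehydrogenase, had a fold change of 1.09 (0.881 to 1.36). Cs, the citrate synthase that opens the cycle, stood at 0.91 (0.793 to 1.05), and Dlst, the E2 subunit of the oxoglutarate complex, at 1.12 (0.982 to 1.28). The 3 subunits of isocitrate dehydrogenase lay close together, with fold changes of 0.95 for Idh3a, 0.90 for Idh3b and 0.95 for Idh3g. Cs and Dlst did not overlap between the ages either. For Cs the groups nearly touched, with a highest aged value of 222.34 CPM and a lowest young value of 222.41 CPM. In all, 6 of the 12 TCA cycle genes did not overlap on the TMM scale, 5 of them lower and 1 higher in aged Tregs, beside backgrounds of 14.4% for lower and 15.5% for higher. With library size alone, those without overlap were Idh3b, Idh3g, Ogdh, Suclg1 and Fh1, all lower in aged Tregs.

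Hif1a, the factor that raises many glycolytic genes in low oxygen and in activated T cells, measured 241, 146 and 244 CPM in aged and 165, 215, 137 and 129 CPM in young Tregs. Its groups overlapped, and the fold change of 1.30 (0.908 to 1.87) did not pass the test (edgeR adjusted p = 0.284). The protein of Hif1a is controlled mainly by its degradation, so its transcript does not measure its activity.

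The core of the sequence bound by hypoxia-inducible factor 1 is ACGTG, read as CACGT on the other strand, and it is contained in the E-box CACGTG. It was searched on both strands of the 250 bases before the RefSeq transcription start on GRCm38.p6, taking the outermost start of each gene. A window was found for 39 of the 40 genes, all but Idh3a. It held the core in 13 of them (33.3%), against 16.5% of 27025 genes with such a window. None of the 7 called genes had it there. When every annotated start was used, the shares were 38.5% and 18.5%, and 1 of the 7, Aldoa, had it. These matches are a description of the letters and do not show binding.

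Below, Ldha and Pgk1 are shown as glycolytic genes that hold the core and had fold changes of 0.96 and 1.01. Aldoa is shown as the called gene with a match, and Eno3 and Pdha1 as lower genes without one. Each window runs 5′ to 3′ along the gene's strand up to the base before the start, and capitals mark the core on either strand. The Ldha window (chr7:46845554-46845803, plus strand) has 5 matches at 3 places, because CACGTG counts on both strands, and it lies in an intron of a longer Ldha transcript. The Pgk1 window (chrX:106186850-106187099, plus strand) has 2 matches. The Aldoa window (chr7:126799255-126799504, minus strand) has 1 match and also lies within an intron of a longer transcript. The Eno3 window (chr11:70656926-70657175, plus strand) and the Pdha1 window (chrX:160138431-160138680, minus strand) have none. No exon of GENCODE M21 overlaps any of these windows.
Ldha: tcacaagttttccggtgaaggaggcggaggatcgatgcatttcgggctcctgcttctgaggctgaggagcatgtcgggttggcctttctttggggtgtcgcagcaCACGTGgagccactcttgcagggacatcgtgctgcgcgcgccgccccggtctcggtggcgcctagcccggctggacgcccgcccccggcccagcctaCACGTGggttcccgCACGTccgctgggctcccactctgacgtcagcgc
Pgk1: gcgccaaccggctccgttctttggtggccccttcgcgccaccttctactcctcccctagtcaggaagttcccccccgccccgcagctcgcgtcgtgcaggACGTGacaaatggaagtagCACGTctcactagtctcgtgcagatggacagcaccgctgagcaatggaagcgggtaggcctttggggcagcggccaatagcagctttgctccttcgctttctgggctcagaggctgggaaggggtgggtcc
Aldoa: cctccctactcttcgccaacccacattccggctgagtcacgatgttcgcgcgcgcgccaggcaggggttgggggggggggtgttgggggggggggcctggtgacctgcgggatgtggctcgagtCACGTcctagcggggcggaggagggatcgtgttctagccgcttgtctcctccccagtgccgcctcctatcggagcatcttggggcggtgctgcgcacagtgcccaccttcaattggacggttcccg
Eno3: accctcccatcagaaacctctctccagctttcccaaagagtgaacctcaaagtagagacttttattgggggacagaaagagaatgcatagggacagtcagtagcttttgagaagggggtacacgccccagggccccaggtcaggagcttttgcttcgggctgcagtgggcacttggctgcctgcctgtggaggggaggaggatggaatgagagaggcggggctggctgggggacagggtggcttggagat
Pdha1: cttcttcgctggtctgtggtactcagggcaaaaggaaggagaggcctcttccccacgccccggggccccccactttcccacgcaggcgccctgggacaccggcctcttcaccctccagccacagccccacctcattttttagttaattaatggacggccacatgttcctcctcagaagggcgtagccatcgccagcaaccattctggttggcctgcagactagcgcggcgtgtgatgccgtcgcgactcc

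The neighbouring pathways were read from lists of textbook genes. Among the carriers of glucose, lactate and pyruvate, 3 of 10 tested were higher and 1 was lower in aged Tregs. The background was 9.8% of all genes called higher and 6.94% lower. Slc16a3, the lactate exporter MCT4, measured 21.7, 17.1 and 18.5 CPM in aged and 9.79, 10.6, 11.6 and 11.2 CPM in young libraries (log2 fold change 0.82, edgeR adjusted p = 0.0057). Slc2a3, the high-affinity glucose transporter GLUT3, measured 128, 115 and 97.2 CPM in aged and 85.6, 81.6, 91.8 and 89.0 CPM in young libraries (log2 fold change 0.38, edgeR adjusted p = 0.0458). The groups did not overlap in any of these 4 genes, nor in 29.9% of all genes. Slc2a6, a transporter of the same family, had a log2 fold change of 0.72 (edgeR adjusted p = 0.0468). Slc16a7, the high-affinity pyruvate and lactate carrier MCT2, had a log2 fold change of -1.21 at 0.504 to 2.17 CPM (edgeR adjusted p = 0.0396), with as few as 5 counts in a library. Of the 4, only Slc16a3 was called in every fit that left out a library. Slc2a3 and Slc16a7 were called in 1 of these 7 fits and Slc2a6 in none, with adjusted p-values of up to 0.105, 0.0894 and 0.112. Slc2a1, the main glucose transporter of T cells, measured 36.7 to 44.8 CPM in aged and 27.3 to 34.9 CPM in young libraries and did not pass the test (log2 fold change 0.38, edgeR adjusted p = 0.0669).

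Of the other glycolysis and gluconeogenesis genes, 23 of 27 were in the table and 16 could be tested. Of these 16, 2 were higher and none lower, beside 9.8% and 6.94% of all genes. Pfkfb1, a bifunctional enzyme that sets the level of the phosphofructokinase activator fructose 2,6-bisphosphate, measured 6.99, 9.06 and 11.9 CPM in aged and 4.28, 4.90, 5.05 and 2.87 CPM in young libraries (log2 fold change 1.12, edgeR adjusted p = 0.0224). G6pc3, the ubiquitous glucose-6-phosphatase, measured 30.7, 47.8 and 45.0 CPM in aged and 20.01, 24.6, 22.7 and 20.5 CPM in young libraries (log2 fold change 0.91, edgeR adjusted p = 0.0091). Both had separate groups. G6pc3 was called in all 7 fits that left out a library and Pfkfb1 in 4 of them, with an adjusted p of up to 0.0806. Bpgm, the red cell enzyme that makes 2,3-bisphosphoglycerate, ranged from 168 to 3521 CPM in aged and from 268 to 2488 CPM in young libraries and did not pass the test. The summed erythroid markers also varied widely, from 12645 to 161500 CPM, and their part in the Bpgm values was not tested.

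Around the TCA cycle, 4 of 18 tested genes were lower in aged Tregs and none was higher, beside 6.94% and 9.8% of all genes. Glud1, glutamate dehydrogenase, measured 160, 141 and 163 CPM in aged and 222, 233, 206 and 214 CPM in young libraries (log2 fold change -0.50, edgeR adjusted p = 0.0124). Aco1, the cytosolic aconitase, measured 29.4, 29.1 and 28.7 CPM in aged and 41.5, 37.7, 40.04 and 38.9 CPM in young libraries (log2 fold change -0.44, edgeR adjusted p = 0.0131). Acly, which splits exported citrate into acetyl-CoA, had a log2 fold change of -0.46 (edgeR adjusted p = 0.0267), and Idh2, the mitochondrial NADP-dependent isocitrate dehydrogenase, had one of -0.38 (edgeR adjusted p = 0.0432). Glud1 and Aco1 were called in all 7 fits that left out a library, Acly in 2 (adjusted p up to 0.0964) and Idh2 in none (0.0528 to 0.117). The 4 subunits of succinate dehydrogenase did not pass the test, with log2 fold changes of -0.04 for Sdha, -0.33 for Sdhb, -0.11 for Sdhc and 0.13 for Sdhd. Of the 8 pentose phosphate genes, Pgls, the lactonase, was lower by the test (log2 fold change -0.32, edgeR adjusted p = 0.0499) and 7 were not called. Pgls kept the call in 1 of the 7 fits. The same background of 6.94% called lower applies to these 8 genes.

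Among the regulators and other targets of hypoxia-inducible factors, 3 of 26 tested genes were higher and 2 lower, beside 9.8% and 6.94% of all genes. Arnt2, a partner subunit of the factor, measured 27.6, 18.0 and 31.0 CPM in aged and 10.4, 8.34, 6.63 and 7.81 CPM in young libraries (log2 fold change 1.62, edgeR adjusted p = 0.0026). Hif3a, a related subunit, measured 5.85, 5.94 and 6.46 CPM in aged and 2.53, 2.38, 1.97 and 2.44 CPM in young libraries (log2 fold change 1.38, edgeR adjusted p = 0.0027). Both were separate between the ages and were called in all 7 fits that left out a library. Bhlhe40, a transcriptional repressor, had a log2 fold change of 1.25 (edgeR adjusted p = 0.0180). Ddit4, a brake on mTOR signalling, had one of -1.19 (edgeR adjusted p = 0.0301), and Ndrg1 had one of -0.46 (edgeR adjusted p = 0.0401). Of the 7 fits, Bhlhe40 was called in 4, Ddit4 in 2 and Ndrg1 in 1. Arnt, the usual partner of Hif1a, had a log2 fold change of -0.02, and neither Vegfa nor Bnip3 nor Egln3 passed the test. Over all 5 lists, 16 of 78 tested genes were called (20.5%), 8 in each direction, beside the background of 16.7%.

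The 7 called genes kept their sign in all 18 alternative fits. Aldoa and Eno3 were called in 17 of them, Pdha1 in 16, Aldoc in 14, Fh1 in 12, Eno2 in 9 and Suclg1 in 5. Of the 39 genes, aged replicate 1 held the highest aged value in 19 and young replicate 2 the highest young value in 25, and these were the libraries with the least haemoglobin. The same 7 genes were called once genes of mitochondrial, immunoglobulin and haemoglobin origin had been removed before scaling, a fit in which 17.5% of all genes were called. When both of those libraries were left out, a fit added after the data were seen, 7 genes were called again, 5 of them shared (Aldoa, Aldoc, Eno2, Eno3 and Pdha1). Eno1 and Pfkp took the place of Suclg1 (edgeR adjusted p = 0.0883) and Fh1 (0.0583), and 23.1% of all genes were called in that fit. Leaving out 1 library gave 8 genes against a background of 21.5% (aged replicate 1), 4 against 12.2% (aged replicate 2), 3 against 8.9% (aged replicate 3), 5 against 9.58% (young replicate 1), 6 against 14.5% (young replicate 2), 3 against 9.28% (young replicate 3) and 3 against 9.03% (young replicate 4). DESeq2 called 8 genes (background 16.9%), limma voom 6 (16.4%) and limma-trend 6 (17%). The count was 7 with RLE factors (17.2%), 5 with library size alone (13.2%), 5 without a filter (8.72%), 6 with at least 10 counts in every library (16.1%) and 8 once GC and length trends were removed (18.2%). With the replicate number as a block edgeR called 0 genes (2.1%), and 9 had an unadjusted p under 0.05 there (background 23.5%) against 12 without the block (32.7%). The count was also 0 at a threshold of 1 on the absolute log2 fold change (7.31%).

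**Figure D5:**
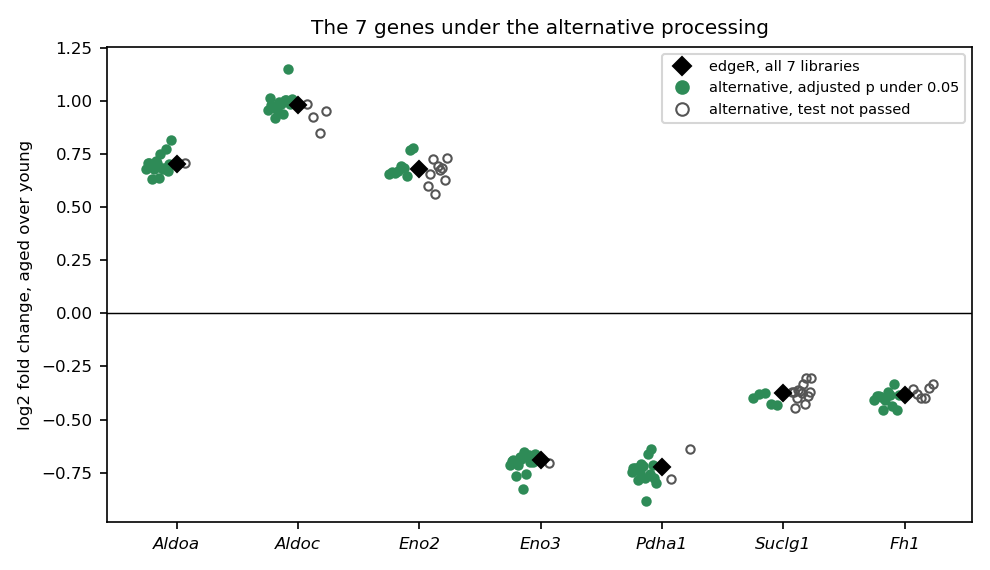
Log2 fold change (y axis, aged over young) of the 7 called genes in the fit of all libraries (diamonds) and in 18 alternative fits, where filled points passed the test and open points did not. Each gene keeps its sign throughout, and Suclg1 has the most open points.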

How the data were processed

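RNA-sequencing libraries of CD4+CD25+ splenocytes, 3 from aged and 4 from young mice, were compared. Whether a library came from a single mouse or a pool is not given. The authors deposited raw read counts per Ensembl gene for each library, in the layout that HTSeq-count writes (union mode, no strand, by their naming). The submitters' processing notes name the build mm10. The aligner is not given in the sources used here. A deposited series table gave the gene symbols and a normalized signal, which the authors made by dividing the counts by a size factor per library. Its columns of the authors' own fold changes and p-values were not used. Reads on no gene or several genes, 13.1% to 20.9% per library, were left out.

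The main test was the quasi-likelihood test of edgeR 4.0.16 under R 4.3.3 (TMM, filterByExpr by group, no covariate), adjusted by the Benjamini-Hochberg method over 13904 genes. The study's methods name limma, which was used as an alternative because the values are counts. CPM are on the TMM scale. Levels between genes are compared per kilobase of merged GENCODE M21 exons. Fold changes are given with 95% confidence intervals, and each standard error follows from the fold change and its F statistic. Intervals across libraries include counting error, and limits of 3 counts cover counting error only. Promoter sequences are from RefSeq (GRCm38.p6). The edgeR, DESeq2 and limma fits were tested on simulated data.

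The genes, the lists and the 11 isoform pairs were chosen with earlier results of these data known. Named genes are all 40, with library values for called genes and isoform families, and each called gene of the lists, up to 6 per list. Genes of the lists named besides these were chosen after their values were seen. The alternatives were DESeq2 1.42.0, limma 3.58.1 (voom, and trend with a prior count of 2), RLE or library-size normalization, no filter, at least 10 counts in every library, class genes (mitochondrial, immunoglobulin, haemoglobin) left out, the replicate number as a block, GC content and length trends removed (known for 99.7% of genes), each library left out, and a threshold of 1 on the absolute log2 fold change.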

Additional observations from a re-analysis of the deposited data

Results flagged for a closer look

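Values of single libraries were flagged in 3 of 51 groups of 4 young libraries examined (40 genes and 11 isoform ratios). Chance gives about 1 in 20, so this number is near that share. The groups share the same 4 libraries and are not independent. In each case the library was young replicate 2, which has a low haemoglobin share and the highest sum of plasma cell markers. Gapdh measured 528 CPM there against 387 to 410 CPM in the other young libraries. Eno1 measured 635 CPM against 497 to 510 CPM. Pdk3 measured 25.9 CPM against 27.8 to 28.1 CPM, a gap that is small in size. Aged libraries, 3 in number, were too few for this check.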

How the results depend on the processing

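Under the replicate block, no gene of the 40 was called, in either direction (0 against 7; 9 at an unadjusted p under 0.05, beside 23.5% of all genes), nor any of the lists (0 against 16), and over all genes 292 were called, 202 higher and 90 lower, against 2327. Deviations of same-numbered libraries correlated at -0.13, -0.35 and -0.16, and no library was closest to its own number. The labels do not say whether same-numbered libraries shared a day or litter. With deviations taken within groups of 3 and 4 libraries that differ in cell content, these correlations cannot decide whether the samples are paired. With a threshold of 1 on the absolute log2 fold change, 0 of the 40 (0 higher, 0 lower), 6 of the list genes and 1016 of all genes (757 higher, 259 lower) were called. With both libraries of lowest haemoglobin share left out, 1780 genes were called higher against 1362, and 1474 lower against 965. Leaving out each library in turn gave 3 to 8 called genes of the 40 (1 to 3 higher, 2 to 5 lower), 6 to 17 of the list genes, and 1237 to 3058 of all genes (783 to 1603 higher, 448 to 1455 lower). Of the 40, the count was 4 without aged replicate 2 and 3 without aged replicate 3, young replicate 3 or young replicate 4. The cause was not tested, and each of these fits also had fewer samples. In the other settings the count was 5 to 8. Of 126 alternative values of the 7 called genes, 90 kept the call, 36 lost it and 0 changed sign. Among uncalled genes, 3 (Eno1, Pfkp and Pgam1) were called in at least 1 alternative and 12 changed sign in at least 1, uncalled both times. Of the 11 isoform ratios, those of Ldha to Ldhb, Pdk1 to Pdk2 and Pfkl to Pfkp changed sign in 9 values in all, each with a library left out. No setting moved the median log2 fold change of all genes by more than 0.071. Depth limits Aldoc, Eno2 and Pdk4, the genes with the fewest counts.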
